A study of Rattus norvegicus with 18 samples.

Results

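Collagen chains are encoded by one of the larger gene families of the extracellular matrix, and their messenger RNA was followed here in rat kidney cortex. Members were all genes of the deposited table whose symbol is Col, a number, the letter a and a number, which gave 36 of 18420 gene rows. Of these, 31 passed a filter on low values (at least 10 normalised reads in at least 6 of the 18 libraries). Zucker diabetic fatty (ZDF) rats in 3 groups of 6 libraries were sequenced, to profile kidney disease in this rat and the effect of Roux-en-Y gastric bypass (RYGB) on it. The healthy control group was lean, non-diabetic and heterozygous for the fa allele (ZDF fa/+). The disease group was diabetic ZDF fa/fa, and the RYGB group was diabetic ZDF fa/fa with the bypass operation. The fa allele disrupts the leptin receptor, so leptin signalling is defective throughout the body of both fa/fa groups, with and without surgery. The labels used here give no age, sex or batch, and do not say whether the disease group had a sham operation. They do not state that each library is a separate animal either, so a p-value here weighs a difference against the scatter of these libraries, which may be technical.

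A collagen molecule is a rope of 3 chains wound into a triple helix. Fibrillar collagens (types I, III and V) are laid down mainly by fibroblasts and make the banded fibrils that accumulate in a scarred kidney interstitium. Type IV collagen forms the sheet-like network of basement membranes: a Col4a1 and Col4a2 network lies under most epithelia and vessels, and a Col4a3, Col4a4 and Col4a5 network, made by podocytes, supports the filtration barrier of the glomerulus. Type VI collagen makes beaded filaments between fibrils and basement membranes, and the remaining types sit on fibril surfaces, span cell membranes or anchor epithelia. The 36 chains comprised 8 fibrillar chains (Col1, Col3, Col5 and Col11), 5 Col4 chains, 5 Col6 chains and 18 others. Not every known chain had a row under its symbol: Col2a1, Col4a6 and Col6a3, among others, had none and were not followed.

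Values are normalised reads, that is reads per gene divided by 1 size factor per library. Libraries held 8116638 to 42713246 reads in genes, and all 36 chains together took 0.0869 to 0.169% of those reads in healthy control, 0.113 to 0.180% in disease and 0.0783 to 0.114% in RYGB libraries. A chain is called below where the adjusted p of limma was under 0.05 (Benjamini-Hochberg over the 13988 genes tested), and fold changes are on the log2(value + 1) scale with their standard error (SE). Proximal tubule markers summed to 169900 to 404200 normalised reads per library and podocyte markers to 16610 to 39400, so both cortical cell types were present in every library. Healthy control replicate 4 stood apart for collagens. It was the lowest healthy control library in 6 of 8 fibrillar, 5 of 5 Col4 and 3 of 4 tested Col6 chains, and collagens took 0.0869% of its gene reads against 0.132 to 0.169% in the other 5. It also held the fewest gene reads, 8116638, and disease replicate 1, with 8157977, had a collagen share of 0.168%. The part of depth was not tested. RYGB replicate 3 had the lowest collagen share of all libraries, 0.0783%, and was the lowest RYGB library in 14 of 31 tested chains and 6 of 8 fibrillar chains. Counts of chains called against healthy control, and chain fold changes against healthy control moved across the threshold by healthy control replicate 4, are therefore given with and without that library. Results of the gene lists further below are from all libraries, with their counts without that library in the closing section.

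Between disease and healthy control no collagen chain was called by limma, against 0.579% of all genes called higher and 1.03% called lower. At an unadjusted p below 0.05 there were 6 of 31 chains, against 11.1% of all genes. The count tests on recovered reads called 2 chains with edgeR, Col6a5 and Col9a1, both lower in disease, and 3 with DESeq2, which added Col24a1 as higher, against 1.6% and 2.93% of all genes. No chain had disease and healthy control libraries that did not overlap, which 1.24% of all genes had. The median fold change over the 31 chains was 0.05, beside 0.00 over all genes.

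Between RYGB and disease 10 of the 31 chains were called, 9 lower and 1 higher, against 2.1% of all genes called lower and 1.84% called higher. The 9 that fell after RYGB were Col1a1, Col3a1, Col5a2 and Col11a1 of the fibrillar chains, Col4a1 and Col4a2, and Col6a1, Col6a2 and Col6a5. The chain that rose was Col27a1. Leaving out 1 library took the count of 10 to 4 (without disease replicate 2), 5 (without disease replicate 1) or 6 (without RYGB replicate 2, 3, 4 or 5), and Col1a1, Col3a1, Col5a2 and Col6a5 were called in all 18 such fits. At an unadjusted p below 0.05 there were 13 chains, against 20.7% of all genes, and edgeR called 10 and DESeq2 12, against 4.5% and 7.85%. In 8 of the 31 tested chains every RYGB library lay below every disease library, against 2.6% of all genes with groups that did not overlap in either direction. These 8 were the chains called lower apart from Col6a2. The median fold change over the 31 chains was -0.28, beside 0.00 over all genes. Because this is bulk tissue, fewer cells of a type and less RNA per cell cannot be told apart.

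RYGB against healthy control gave 6 calls, with Col3a1, Col5a2, Col11a1, Col6a5 and Col9a1 lower and Col27a1 higher, against 1.98% of all genes called lower and 2.46% called higher. The count tests called 11 chains with edgeR and 12 with DESeq2, against 6.05% and 11.5% of all genes, and 16 chains had an unadjusted p below 0.05, against 26.2%. Only Col6a5 and Col9a1 had groups that did not overlap, against 3.22% of all genes. Without healthy control replicate 4, 14 chains were called lower and 1 higher, while the share of all genes called lower was 4.79% and higher 5.97%. Those 14 comprised 6 fibrillar, 4 Col4 and 3 Col6 chains and Col9a1, and 15 of the 31 chains had groups that did not overlap, against 10.4% of all genes. Disease against healthy control without that library gave 3 calls, all lower in disease: Col6a5, Col9a1 and Col4a4. In that fit 1.34% of all genes were called lower and 0.881% higher, and the 3 chains had groups that did not overlap, against 2.54% of all genes. Each group enters a pair of the comparisons, so the 3 comparisons share libraries and are not independent.

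**Figure D1:**
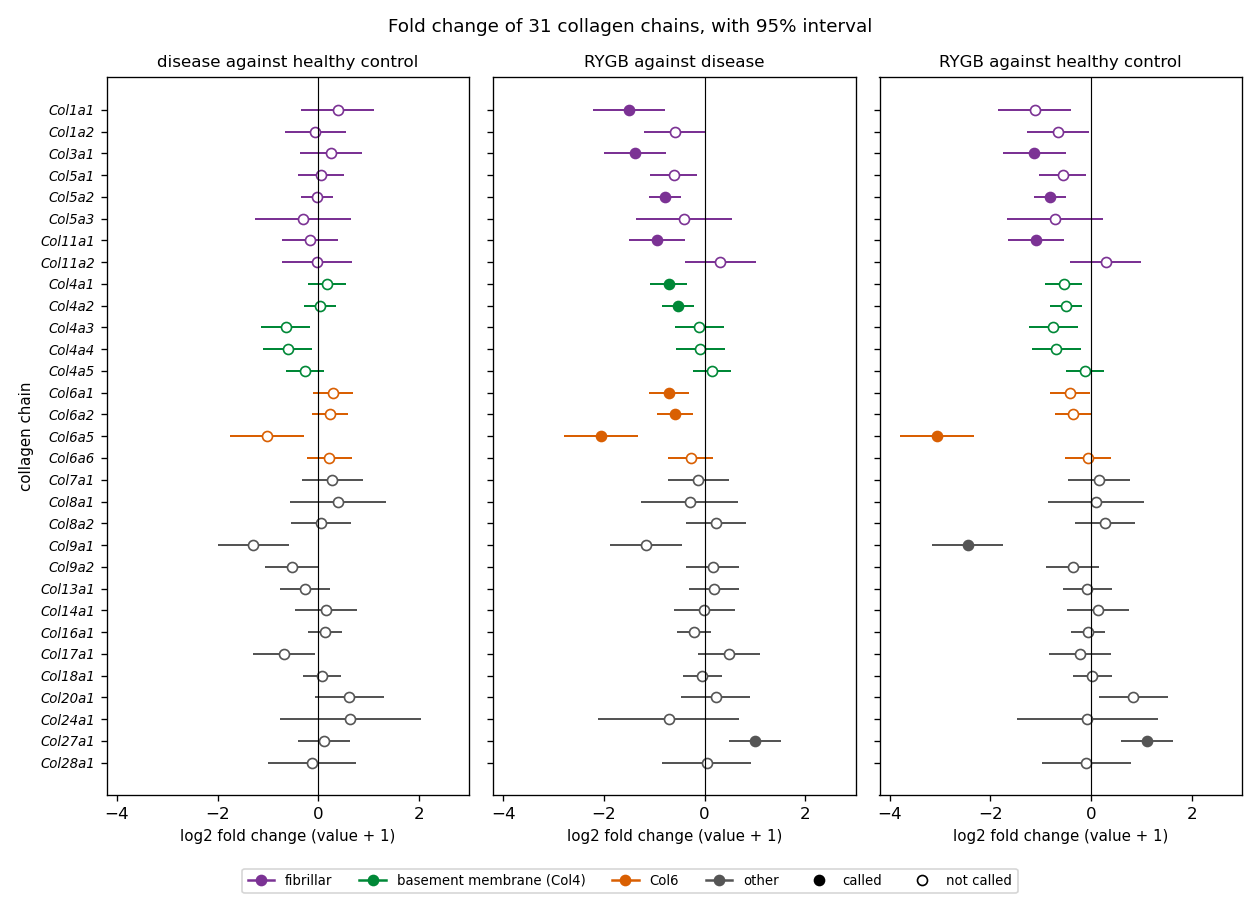
Fold change of the 31 tested collagen chains (rows) in the 3 comparisons (panels), on the log2(value + 1) scale with its 95% interval. Filled points are chains called by limma, coloured by subgroup: none in disease against healthy control, 10 in RYGB against disease and 6 in RYGB against healthy control.

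The fibrillar chains as a group had a median fold change of -0.70 in RYGB against disease. There 4 of 8 were called lower, against 2.1% of all genes, and 7 of 8 were below 0, where 49.9% of all genes were above 0. For RYGB against healthy control the median was -0.76, with 3 called lower, against 1.98% of all genes. Between disease and healthy control it was -0.03, with no call by limma, edgeR or DESeq2 and 0 chains at an unadjusted p below 0.05 (11.1% of all genes). Summed over the 8 chains, healthy control libraries held 6805 ± 2130 normalised reads (SD, n = 6), disease libraries 7050 ± 993 and RYGB libraries 3434 ± 813.

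Col1a1 encodes the chain that supplies most of the type I collagen molecule. Disease libraries lay between 656 and 1504 normalised reads (median 1023) and RYGB libraries between 239 and 431 (median 384), so the highest RYGB library was below the lowest disease library. Healthy control libraries ran from 196 in replicate 4, then from 856 to 1143 in the others. Col1a1 fell by 1.51 on the log2 scale in RYGB against disease (SE 0.34, adjusted p = 0.0163), to 0.344 of the disease mean. The fold change against healthy control was -1.12 (SE 0.34, adjusted p = 0.058), which missed the threshold, and without healthy control replicate 4 it was -1.51 (adjusted p = 0.000162). Disease against healthy control gave 0.39 with a 95% interval from -0.32 to 1.09, and -0.00 without that library.

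Col1a2 encodes the partner chain of type I collagen and moved less. Means were 1306 ± 476 normalised reads in healthy control, 1153 ± 164 in disease and 794 ± 261 in RYGB libraries (SD, n = 6 each). The fold change of RYGB against disease was -0.60 (95% interval from -1.19 to -0.01, adjusted p = 0.235), and the groups overlapped. Against healthy control it was -0.66 (adjusted p = 0.152), and -0.97 without healthy control replicate 4 (adjusted p = 0.00455). Within a library the log2 ratio of Col1a1 to Col1a2 averaged -0.21 ± 0.40 in disease and -1.12 ± 0.39 in RYGB (SD, n = 6 each). That difference of -0.91 had an exact two-sided permutation p = 0.00866, or 0.0693 after Benjamini-Hochberg adjustment over the 24 tests of 8 chain pairs in 3 comparisons, so it missed the threshold.

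Col3a1 encodes the single chain of type III collagen, which is mixed into type I fibrils in soft tissue. Its level was 2824 to 3956 normalised reads in disease (median 3233) and 789 to 1888 in RYGB libraries (median 1278), without overlap. Healthy control replicate 4 was at 881 and the other 5 healthy control libraries at 3067 to 3753. Col3a1 fell by 1.38 in RYGB against disease (SE 0.29, adjusted p = 0.0107) and by 1.12 against healthy control (SE 0.29, adjusted p = 0.035). Leaving out healthy control replicate 4 made the second value -1.45 (adjusted p = 6.43e-05). The call against healthy control held in 10 of 18 fits that each left out 1 library, with an adjusted p of up to 0.0914. The ratio of Col3a1 to Col1a1 differed little between groups, by 0.13 at most (exact permutation p of at least 0.552).

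Type V collagen starts type I fibrils and limits their width, and Col5a1 and Col5a2 encode its common chains. Col5a2 was at 456 to 959 normalised reads in healthy control (median 729), 601 to 857 in disease (median 696) and 350 to 465 in RYGB libraries (median 415). All RYGB libraries were below all disease libraries, and 5 of 6 healthy control libraries were above all RYGB libraries. Col5a2 fell by 0.78 in RYGB against disease (SE 0.15, adjusted p = 0.00431) and by 0.81 against healthy control (SE 0.15, adjusted p = 0.00373), to 0.578 and 0.559 of those means, and by 0.94 against healthy control without its replicate 4 (adjusted p = 8.57e-05). It was called in both comparisons in all 18 fits that left out 1 library and in all 10 other settings. Col5a1 means were 389 ± 107, 397 ± 95 and 257 ± 52 normalised reads in healthy control, disease and RYGB libraries, and the fold change in RYGB against disease was -0.62 (adjusted p = 0.111). Against healthy control it was -0.56 (adjusted p = 0.114), and -0.76 without healthy control replicate 4 (adjusted p = 0.0109). Col5a3, a rarer chain of type V collagen, averaged 20.1 ± 3.2, 21.9 ± 17.2 and 12.6 ± 5.3 and was not called.

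Type XI collagen, best known from cartilage, is the counterpart of type V there. Col11a1 was at 212 to 346 normalised reads in disease (median 245) and 112 to 157 in RYGB libraries (median 137), without overlap. Healthy control replicate 4 was at 98.1, below every RYGB library, and the group's median was 341. Col11a1 fell by 0.94 in RYGB against disease (SE 0.26, adjusted p = 0.0432) and by 1.10 against healthy control (SE 0.26, adjusted p = 0.0226), where leaving out healthy control replicate 4 gave -1.41 (adjusted p = 1.14e-05). The first call held in 7 of the 18 fits that left out 1 library, the second in 13. Col11a2 averaged 123 ± 72, 122 ± 61 and 142 ± 44 normalised reads and was not called.

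**Figure D2:**
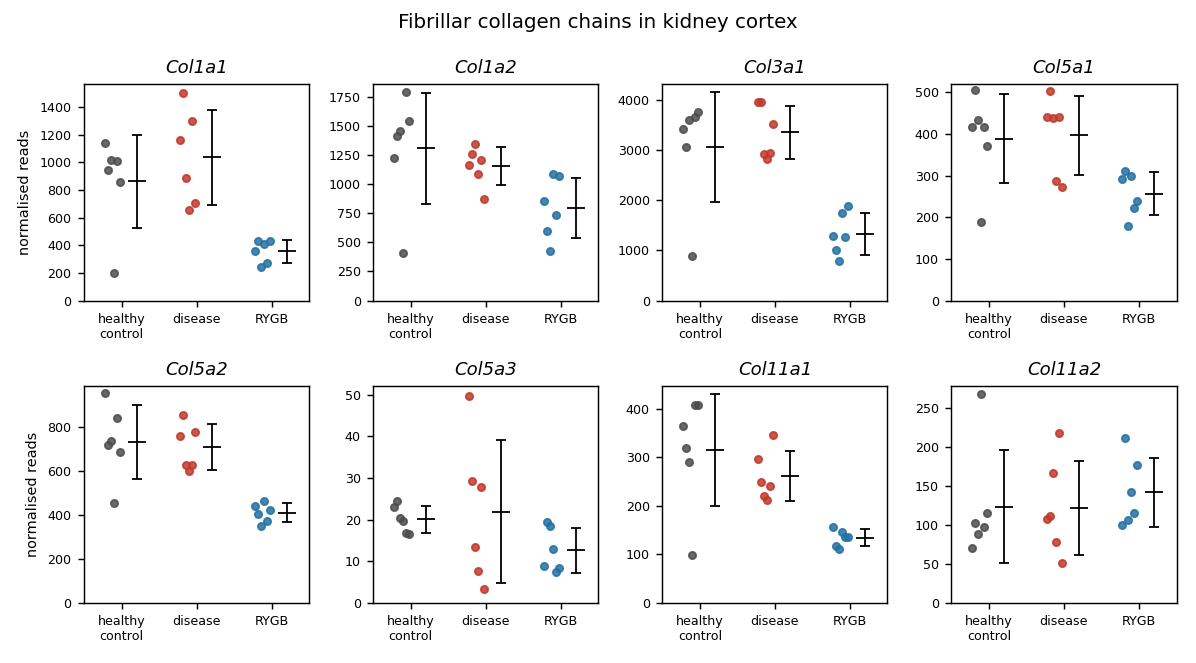
Normalised reads (vertical axis, each panel with its own scale from 0) of the 8 fibrillar chains, 1 point per library, with the mean and SD of 6 libraries per group. RYGB points lie below all disease points for Col1a1, Col3a1, Col5a2 and Col11a1, and healthy control replicate 4 is the low grey point, at 196 for Col1a1 and 881 for Col3a1.

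The sequence in front of the start site is shown for 2 fibrillar chains that fell without overlap, since they share the direction of change. Promoter windows came from RefSeq on the GRCr8 assembly, matched by symbol for 30 of the 36 chains (33 windows), and Col1a1 and Col3a1 were not among them. The 250 bases before each start were searched on both strands for CCAAT (the CCAAT box, ATTGG on the other strand), GGGCGG (the GC box, CCGCCC on the other strand) and TATAAA (the TATA box, TTTATA on the other strand). Letters in capitals are such matches, which do not overlap one another in the printed stretches. The 120 bases before the start of Col5a2 (chr9:55090152-55090271, minus strand) and Col11a1 (chr2:204509016-204509135, plus strand) read as follows.
Col5a2: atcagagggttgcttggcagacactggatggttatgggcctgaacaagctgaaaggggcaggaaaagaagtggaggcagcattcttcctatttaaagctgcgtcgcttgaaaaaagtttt
Col11a1: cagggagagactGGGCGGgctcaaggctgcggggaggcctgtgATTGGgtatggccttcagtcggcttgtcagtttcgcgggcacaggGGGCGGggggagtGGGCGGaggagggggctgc
Col11a1 has GC boxes whose far ends lie 108, 32 and 19 bases before the start and a reverse CCAAT box at 77, and the printed stretch of Col5a2 has no match to the searched letters. A CCAAT box was in 11 of the 33 collagen windows and in 34% of all 33469 RefSeq windows, a GC box in 18 and in 30.5%, and a TATA box in 3 and in 12.9%. These are matches of letters only.

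Among the basement membrane chains, Col4a1 and Col4a2 fell in RYGB against disease while Col4a3, Col4a4 and Col4a5 did not pass the test. The median fold change of the 5 chains was -0.11 in RYGB against disease, -0.27 in disease against healthy control and -0.54 in RYGB against healthy control. The latter pair of comparisons had no limma call, with 2 and 4 of 5 chains at an unadjusted p below 0.05 (11.1 and 26.2% of all genes), while edgeR and DESeq2 each called 0 and 4 (of all genes 1.6 and 6.05% with edgeR, 2.93 and 11.5% with DESeq2).

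Col4a1 was at 6371 to 10540 normalised reads in disease (median 7048) and 3597 to 5495 in RYGB libraries (median 4697), without overlap. Healthy control libraries lay at 4006 in replicate 4 and 6145 to 8504 in the others. Col4a1 fell by 0.72 in RYGB against disease (SE 0.17, adjusted p = 0.0219), to 0.605 of the disease mean, and the call was lost without disease replicate 1 or 2 (adjusted p of up to 0.06). Its partner Col4a2 was at 2294 to 3590 in disease (median 2787) and 1817 to 2231 in RYGB libraries (median 1975), again without overlap, and at 1796 to 3537 in healthy control (median 2931). Col4a2 fell by 0.53 (SE 0.14, adjusted p = 0.0431), a call that held in 7 of 18 fits leaving out 1 library. Against healthy control the fold changes were -0.54 for Col4a1 (adjusted p = 0.0649) and -0.50 for Col4a2 (adjusted p = 0.0509), neither past the threshold. Without healthy control replicate 4 they were -0.69 (adjusted p = 0.00457) and -0.63 (adjusted p = 0.00224).

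The Col4a1 and Col4a2 genes lie head to head and are known to share a promoter, so the whole stretch between their RefSeq start sites is shown, 76 bases on the plus strand of GRCr8 at chr16:84885521-84885596, with the match to a GC box on the minus strand in capitals.
Col4a2-Col4a1: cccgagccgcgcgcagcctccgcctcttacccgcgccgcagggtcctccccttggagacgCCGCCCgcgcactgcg
The log2 ratio of Col4a1 to Col4a2 within a library was 1.25 ± 0.10 in healthy control, 1.40 ± 0.10 in disease and 1.21 ± 0.17 in RYGB (SD, n = 6 each). Its differences were 0.15 in disease against healthy control (exact permutation p = 0.0238, adjusted 0.143) and -0.19 in RYGB against disease (exact permutation p = 0.0346, adjusted 0.166), neither past the threshold. Since genes differ in length, only the change of a ratio between groups is read here, and reads of genes that overlap can be misassigned because the sources used here do not give the strand setting of the counting.

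Col4a3, mutated like Col4a4 and Col4a5 in the hereditary kidney disease Alport syndrome, was at 795 to 2255 normalised reads in healthy control (median 1392), 544 to 1179 in disease (median 960) and 711 to 925 in RYGB libraries (median 817). The fold changes were -0.65 in disease against healthy control (SE 0.22, adjusted p = 0.219) and -0.11 in RYGB against disease (adjusted p = 0.825). Col4a4, whose start lies 412 bases from that of Col4a3 on GRCr8, gave -0.60 (adjusted p = 0.265) and -0.08 (adjusted p = 0.866), from means of 1259 ± 515, 771 ± 94 and 738 ± 169. Both chains had healthy control libraries spread widely, and without healthy control replicate 4 Col4a4 was called lower in disease (-0.82, adjusted p = 0.0171) while Col4a3 stayed just short of the threshold (-0.80, adjusted p = 0.0508). RYGB against healthy control gave -0.75 for Col4a3 (adjusted p = 0.0568) and -0.69 for Col4a4 (adjusted p = 0.076). Without that library both were called lower, at -0.91 (adjusted p = 0.0107) and -0.90 (adjusted p = 0.00355). Col4a5 averaged 494 ± 115, 410 ± 104 and 448 ± 65 normalised reads and was not called in any comparison. Of 9 podocyte markers tested, none was called in any comparison by limma, edgeR or DESeq2 (0, 1 and 2 at an unadjusted p below 0.05, against 11.1, 20.7 and 26.2% of all genes), with medians of -0.11, -0.03 and -0.14, and the summed podocyte markers overlapped between groups (17180 to 39400 in healthy control, 16610 to 29810 in disease and 18760 to 23970 in RYGB libraries).

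Set within each library, the balance of the Col4a1 and Col4a3 chains differed most among the pairs compared in disease against healthy control. The log2 ratio of Col4a1 to Col4a3 was 1.90 to 2.62 in the 6 healthy control libraries, 2.67 to 3.55 in disease and 2.09 to 2.80 in RYGB. Disease libraries all lay above healthy control libraries, and RYGB libraries overlapped with both groups. The difference was 0.82 in disease against healthy control (exact two-sided permutation p = 0.00216, the smallest that 6 against 6 libraries allow). After adjustment over the 24 tests this p was 0.0519. A single pair at the smallest exact p can reach no lower adjusted value, so 1 pair alone could not pass the threshold. In RYGB against disease it was -0.61 (exact permutation p = 0.00866, adjusted 0.0693), and in RYGB against healthy control 0.21 (exact permutation p = 0.206, adjusted 0.494). Both of the first pair of differences passed without disease replicate 5, at 0.91 and -0.70 (exact permutation, adjusted p = 0.026 each). That was the only 1 of the 18 fits leaving out 1 library in which any chain pair passed. None of the 24 tests passed with all libraries, and 5 had an unadjusted exact permutation p below 0.05.

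**Figure D3:**
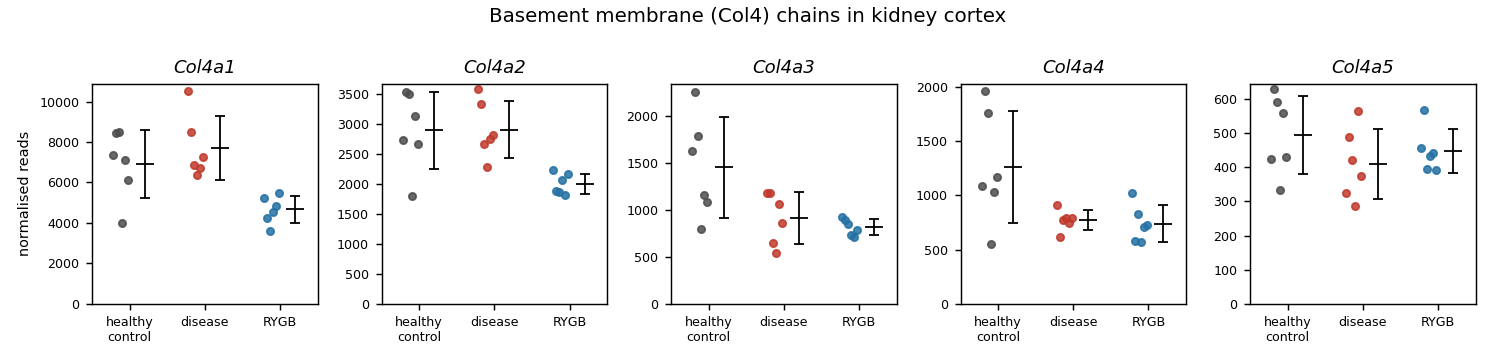
Normalised reads (vertical axis, each panel with its own scale from 0) of the 5 Col4 chains, 1 point per library, with the mean and SD of 6 libraries per group. RYGB points lie below all disease points for Col4a1 and Col4a2, whereas for Col4a3, Col4a4 and Col4a5 they lie among them.

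**Figure D4:**
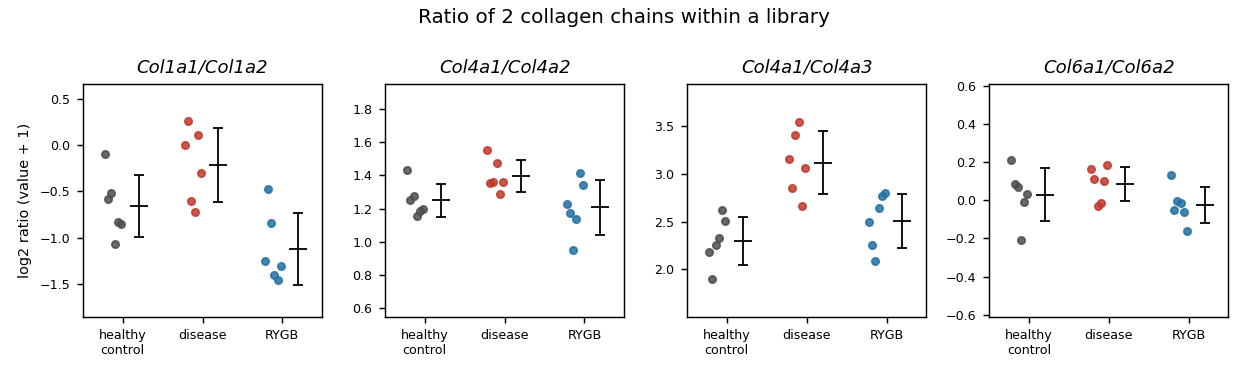
Log2 ratio of 2 chains within a library (value + 1 in both chains; vertical axes do not start at 0), 1 point per library, with the mean and SD of 6 libraries per group. The Col4a1 to Col4a3 ratios of disease (2.67 to 3.55) lie above those of healthy control (1.90 to 2.62), and the Col6a1 to Col6a2 ratios overlap in all groups.

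Of the Col6 chains, 3 of the 4 tested were called lower in RYGB against disease, against 2.1% of all genes. Col6a5 was the only one of the 4 called against healthy control with all libraries. Their median fold change was 0.22 in disease against healthy control, -0.65 in RYGB against disease and -0.39 in RYGB against healthy control.

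Col6a1 and Col6a2 encode the common chains of type VI collagen. Col6a1 was at 1501 to 2255 normalised reads in disease (median 1789) and 776 to 1460 in RYGB libraries (median 1160), without overlap, and at 824 to 1889 in healthy control (median 1596). It fell by 0.71 in RYGB against disease (SE 0.18, adjusted p = 0.0339). Col6a2 was at 1398 to 2131 in disease (median 1718), 777 to 1416 in RYGB (median 1211) and 954 to 1900 in healthy control libraries (median 1534), so the highest RYGB library just passed the lowest disease library. Col6a2 fell by 0.59 (SE 0.16, adjusted p = 0.043). RYGB against healthy control gave -0.42 for Col6a1 (adjusted p = 0.154) and -0.36 for Col6a2 (adjusted p = 0.164), and without healthy control replicate 4 both were called lower, at -0.59 (adjusted p = 0.0129) and -0.49 (adjusted p = 0.0354). The calls of Col6a1 and Col6a2 against disease held in 12 and 5 of the 18 fits that left out 1 library. The ratio of Col6a1 to Col6a2 within a library changed by at most 0.11 in either direction (exact permutation p of at least 0.0628).

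Col6a5 encodes a chain that can take the place of the large chain of type VI collagen, Col6a3, which had no row here. Col6a5 had the largest fold change of all 31 chains in RYGB against disease and in RYGB against healthy control. RYGB libraries were at 6.61 to 17.3 normalised reads (median 12.4, 6 to 35 reads each), disease libraries at 40.5 to 59.0 (median 52.7) and healthy control libraries at 27.0 in replicate 4 and 112 to 192 in the others. No RYGB library reached a disease or healthy control library. Col6a5 fell by 2.05 in RYGB against disease (SE 0.34, adjusted p = 0.00213) and by 3.06 against healthy control (SE 0.34, adjusted p = 0.000141), to 0.235 and 0.101 of those means, and by 3.44 against healthy control without its replicate 4 (adjusted p = 6.23e-08). Both calls held in all 18 fits that left out 1 library and in the 10 other settings. Disease against healthy control gave -1.01 (SE 0.34, adjusted p = 0.204), and -1.39 without healthy control replicate 4 (adjusted p = 0.00199). Col6a6, another alternative chain, averaged 415 ± 105, 482 ± 119 and 406 ± 137 normalised reads and was not called. Col6a4, which did not pass the filter, was listed at 0.989 to 13.2 normalised reads.

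RefSeq gave a window for Col6a1 but was not matched for Col6a2. The 120 bases before the start of Col6a1 (chr20:11905570-11905689, plus strand, GRCr8) are shown because this chain fell without overlap, and they hold none of the letters searched.
Col6a1: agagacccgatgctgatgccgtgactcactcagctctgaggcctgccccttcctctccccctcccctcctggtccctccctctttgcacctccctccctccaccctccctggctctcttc

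The 18 other chains showed no common direction. Of the 14 tested, the median fold change was 0.10 in disease against healthy control, 0.02 in RYGB against disease and -0.02 in RYGB against healthy control. Of these, 2 chains were called. Col27a1 was higher in RYGB against disease and against healthy control (1.84 and 2.46% of all genes), and Col9a1 was lower in RYGB against healthy control (1.98%).

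Col27a1 encodes a fibril-forming chain known from cartilage, set among the others here because the subgroups follow type numbers. Of the 6 RYGB libraries 5 were at 1219 to 1657 normalised reads and replicate 3 was at 616. Disease libraries were at 514 to 872 (median 552) and healthy control libraries at 439 to 576 apart from replicate 4 at 1109, so RYGB replicate 3 was the only RYGB library within the disease range, and healthy control replicate 4 the only healthy control library above RYGB replicate 3. Col27a1 rose by 1.00 in RYGB against disease (SE 0.24, adjusted p = 0.0226) and by 1.12 against healthy control (SE 0.24, adjusted p = 0.0124), to 2.05 and 2.15 times those means, and by 1.31 against healthy control without its replicate 4 (adjusted p = 0.000747). The call against healthy control held in all 18 fits that left out 1 library, and the call against disease in 13, with an adjusted p of up to 0.057 in the others. Among the 31 tested chains it was the only one called higher in RYGB. The 120 bases before its start (chr5:81662788-81662907, plus strand, GRCr8) are shown as those of the 1 chain that rose, with a GC box at 85 bases in capitals.
Col27a1: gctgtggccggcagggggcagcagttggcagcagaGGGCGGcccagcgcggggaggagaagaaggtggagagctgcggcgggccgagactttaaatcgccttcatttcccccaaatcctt

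Col9a1, a chain of a collagen that coats cartilage fibrils, was low in every group. Healthy control libraries were at 17.2 to 45.8 normalised reads (median 31.8), disease libraries at 5.86 to 19.9 (median 13.2) and RYGB libraries at 2.21 to 9.40 (median 4.65), the last from 2 to 19 reads each. It passed the filter through healthy control and disease libraries, since no RYGB library reached 10. Every RYGB library lay below every healthy control library, and RYGB and disease libraries overlapped. Col9a1 fell by 2.45 in RYGB against healthy control (SE 0.33, adjusted p = 0.000607), or by 2.62 without healthy control replicate 4 (adjusted p = 7.78e-05), and the call held in all 18 fits that left out 1 library. The fold change was -1.29 in disease against healthy control (adjusted p = 0.0532) and -1.16 in RYGB against disease (adjusted p = 0.0539), each just short of the threshold. Without healthy control replicate 4 the first of these was -1.46 (adjusted p = 0.0217). Col9a2, its partner chain, averaged 23.0 ± 7.5, 15.6 ± 4.4 and 17.1 ± 2.5 and was not called, and Col9a3 stayed at 0 to 4.91 and was not tested.

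Col18a1 encodes a basement membrane collagen whose end fragment is endostatin. It was at 2832 to 4426 normalised reads in healthy control (median 3625), 2773 to 5069 in disease (median 4026) and 2552 to 5550 in RYGB libraries (median 3710), fully overlapping. Its fold changes were 0.07, -0.05 and 0.03, with a 95% interval from -0.41 to 0.32 in RYGB against disease. Col24a1, a fibril-forming relative of Col27a1, averaged 9.85 ± 1.8, 25.9 ± 18 and 10.1 ± 5.0, and the disease libraries ran from 0 in replicate 1 to 49.0 in replicate 2. It was not called by limma. Col20a1 averaged 8.28 ± 3.3, 13.5 ± 5.8 and 15.1 ± 3.3, with a fold change of 0.84 in RYGB against healthy control (adjusted p = 0.111). The membrane-spanning chain Col17a1 averaged 29.2 ± 11.2, 16.96 ± 4.1 and 24.8 ± 8.3, with -0.69 in disease against healthy control (adjusted p = 0.345).

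The remaining tested chains, Col7a1 (anchoring fibrils of epithelia), Col8a1 and Col8a2 (short-chain collagens of vessel walls and other linings), Col13a1 (membrane-spanning), Col14a1 and Col16a1 (on fibril surfaces) and Col28a1, had fold changes between -0.30 and 0.40 in every comparison and none was called. The ratio of Col8a1 to Col8a2 differed by -0.52 to 0.35 between groups (exact permutation p of at least 0.396). Col19a1, Col22a1 and Col26a1 failed the filter and were listed at 0 to 18.7, 4.37 to 15.3 and 0 to 3.40 normalised reads.

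**Figure D5:**
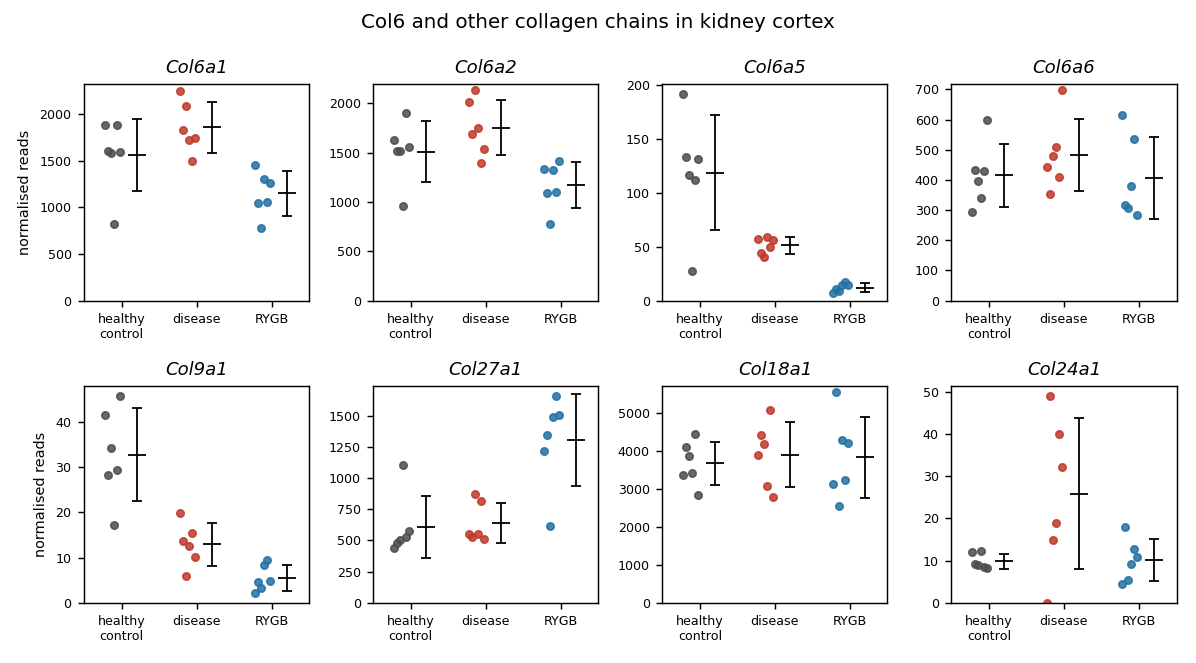
Normalised reads (vertical axis, each panel with its own scale from 0) of the 4 tested Col6 chains and of Col9a1, Col27a1, Col18a1 and Col24a1, 1 point per library, with the mean and SD of 6 libraries per group. Col6a5 separates all RYGB libraries (6.61 to 17.3) from the others, and Col27a1 is high in 5 of 6 RYGB libraries.

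Genes that fold, cut, bind and degrade collagen were followed from lists of 4 steps. In assembly, the hydroxylases, chaperones and transferases that act on new chains inside the cell, none of 16 tested genes was called in any comparison by limma. At an unadjusted p below 0.05 there were 0, 3 and 2 (11.1, 20.7 and 26.2% of all genes). The edgeR test called none (1.6, 4.5 and 6.05% of all genes) and DESeq2 0, 1 and 1 (2.93, 7.85 and 11.5%). The medians were 0.05, -0.05 and -0.02. The member with the highest mean, P4hb, a subunit of prolyl hydroxylase, averaged 12310 ± 1120 normalised reads in healthy control, 11650 ± 1010 in disease and 13960 ± 428 in RYGB libraries, and Serpinh1, the collagen chaperone, gave -0.12 in RYGB against disease (adjusted p = 0.684). Propeptide removal and cross-linking had no limma call among 11 genes either. Beside those same shares of all genes, 1, 3 and 2 had an unadjusted p below 0.05, edgeR called 0, 0 and 1 and DESeq2 0, 2 and 2. The list's medians were 0.17, -0.13 and -0.07. Its member with the highest mean, Furin, a protease that activates proproteins, averaged 5973 ± 1130, 5913 ± 886 and 7029 ± 657.

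Of 7 tested collagen receptors, Itga11, the integrin chain that binds fibrillar collagen on fibroblasts, fell by 1.18 in RYGB against disease (SE 0.27, adjusted p = 0.0179) and by 1.30 against healthy control (adjusted p = 0.0107). Ddr2, a receptor kinase for fibrillar collagen, and Adgrg6, a receptor that binds type IV collagen, fell against healthy control by 0.91 (adjusted p = 0.0439) and 0.64 (adjusted p = 0.0478). In the breakdown list of 9 tested genes, the gelatinase gene Mmp2 averaged 431 ± 135, 338 ± 80 and 125 ± 29 normalised reads. It fell by 1.43 in RYGB against disease (SE 0.25, adjusted p = 0.00262) and by 1.73 against healthy control (adjusted p = 0.000716). Timp2, an inhibitor of such enzymes, fell by 0.55 in RYGB against disease (adjusted p = 0.0237). Mmp9, the other gelatinase, was lower in disease than in healthy control by 1.55 on the log2 scale, a fold change of -1.55 (adjusted p = 0.0364), and gave -2.60 in RYGB against healthy control (adjusted p = 0.000716). All of these limma calls were lower in the group named first, and limma called no receptor or breakdown gene higher. In disease against healthy control 1.03% of all genes were called lower and 0.579% higher. Those shares were 2.1 and 1.84% in RYGB against disease, and 1.98 and 2.46% in RYGB against healthy control. In RYGB against disease 2 of 7 receptors and 2 of 9 breakdown genes were above 0. The receptors were Lair1 (1.74, adjusted p = 0.0551) and Adgrg1 (0.57, adjusted p = 0.118). DESeq2 called 3 receptors there, against 7.85% of all genes.

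Of 8 tested markers of interstitial fibroblasts and pericytes, the cells that make most fibrillar collagen, 3 fell in RYGB against disease: Dcn, the fibril-coating proteoglycan decorin (-0.46, adjusted p = 0.0289), the receptor Pdgfra (-0.57, adjusted p = 0.0298) and Fbln1 (-1.44, adjusted p = 0.0352). Among all genes 2.1% were called lower in that comparison and 1.98% in RYGB against healthy control. Against healthy control Dcn (-0.61, adjusted p = 0.00523) and Pdgfra (-0.75, adjusted p = 0.00581) fell. The summed markers ran from 6270 to 8253 normalised reads in RYGB libraries, 8190 to 10190 in disease and 7188 to 11570 in healthy control, and the list's medians were -0.08, -0.45 and -0.36. Pdgfrb, which marks pericytes, averaged 1323 ± 147, 1325 ± 253 and 1427 ± 189 and was not called. No marker of this list was called in disease against healthy control by limma, edgeR or DESeq2. Of all genes limma called 0.579% higher and 1.03% lower there, edgeR called 1.6% and DESeq2 2.93%. At an unadjusted limma p below 0.05 there was 1 of the 8 markers, against 11.1% of all genes. The part of these cells in the collagen result was not tested.

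The part of the other cell types in the collagen result was not tested. In RYGB against disease, where 2.1% of all genes were called lower and 1.84% higher, calls were 3 of 6 collecting duct and papilla, 2 of 8 mesangial and smooth muscle, 2 of 10 macrophage, 1 of 9 proximal tubule and 0 of 9 endothelial markers. The endothelial list also had none at an unadjusted p below 0.05 or by edgeR or DESeq2, and DESeq2 called 4 of the 9 proximal tubule and 3 of the 10 macrophage markers, against 7.85% of all genes. In disease against healthy control limma called 1.03% of all genes lower and 0.579% higher, and in RYGB against healthy control 1.98 and 2.46%. In the first of these, 6 of the 10 macrophage markers had an unadjusted p below 0.05 (11.1% of all genes), and DESeq2 called 5 (2.93%). Of 8 mesangial and smooth muscle markers, Des rose in disease against healthy control (0.86, adjusted p = 0.00121) and fell in RYGB against disease (-0.78, adjusted p = 0.00226), with summed levels of 5061 to 7580, 4459 to 7123 and 5055 to 8513 in healthy control, disease and RYGB libraries. Of 10 macrophage markers, Lyz2 (0.60, adjusted p = 0.0044) and Clec10a (1.34, adjusted p = 0.0024) rose in disease, and Mrc1 (-1.75, adjusted p = 0.000334) and Clec10a (-1.66, adjusted p = 0.000425) fell in RYGB against disease. The summed macrophage markers were 5335 to 7271, 8191 to 10540 and 7285 to 10160. Most of each sum was Lyz2, which averaged 4449 ± 506, 6747 ± 684 and 6555 ± 887. In disease against healthy control 8 of the 10 markers were above 0 and 2 below. Against healthy control Lyz2 rose (0.56, adjusted p = 0.00699) and Mrc1 fell (-1.10, adjusted p = 0.0091) after RYGB. Of 9 endothelial markers, Vwf fell in disease (-1.16, adjusted p = 0.0319), and Vwf and Cdh5 were lower in RYGB than in healthy control (-1.30, adjusted p = 0.0116, and -0.54, adjusted p = 0.0356), with summed levels of 17150 to 23440, 15390 to 22970 and 17240 to 21150. Of 9 proximal tubule markers, Miox rose in RYGB against disease (0.95, adjusted p = 0.028) and Gatm was lower in RYGB than in healthy control (-1.42, adjusted p = 0.0437), with summed levels of 236800 to 389000, 169900 to 362400 and 249400 to 404200. Of 6 collecting duct and papilla markers, Krt19 fell in disease (-0.87, adjusted p = 0.0415) and rose in RYGB against disease (1.08, adjusted p = 0.00783), where Aqp4 (-1.20, adjusted p = 0.00878) and Aqp3 (-0.62, adjusted p = 0.0444) fell. Their summed levels were 12790 to 21960, 11400 to 33340 and 12110 to 27190. Of 9 cartilage, bone and adipose markers measured, 3 passed the filter, and Adipoq fell in RYGB against disease (-0.82, adjusted p = 0.0289). The other tested members, Sox9 and Cidec, went the other way there without a limma call. Their fold changes were 1.02 (adjusted p = 0.0994) and 1.51 (adjusted p = 0.083). DESeq2 called all 3 in that comparison. All 9 summed to 909 to 1173, 623 to 1381 and 670 to 1983. The cartilage genes Acan and Comp averaged at most 3.44 and 7.98 normalised reads in any group and the bone gene Sp7 at most 0.381. Sox9 averaged 286 ± 83, 164 ± 62 and 356 ± 196 in healthy control, disease and RYGB libraries.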

How the data were processed

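Per the labels' protocols, flash-frozen kidney cortex sections gave RNA for stranded messenger RNA libraries made on an automated instrument. Each deposited value is a gene's signal in a library: the authors divided its read count by the library's size factor, per the deposited table's title and the steps in its values. HTSeq 0.6.1p1, DESeq2 (no version recorded), MultiQC 0.9, FastQC 0.11.2 and build Rnor 5.0 are named in the submitters' processing notes. Aligner and annotation: not given in the sources used here. Rows that name no gene (3) stayed out of library sizes and tests, and held reads outside genes (27.62 to 43.17% of counted reads), reads with several alignments (13.46 to 18.13%) and ambiguous reads (0.0695 to 0.114%).

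In R 4.3.3, limma 3.58.1 (trend option) was run on log2(value + 1) for the 13988 genes with at least 10 in at least 6 libraries. A fit of 3 group means over 18 libraries (15 residual degrees of freedom) gave 3 comparisons with two-sided p-values, adjusted by Benjamini-Hochberg within each and called below 0.05. The log2 fold change understates the change of low genes. Values are whole multiples of 1 step per library, and at least 99.9837% came out whole within 0.01 reads. On these reads edgeR 4.0.16 called 224, 629 and 846 genes, and DESeq2 1.42.0 called 410, 1098 and 1602, as alternatives. The scripts were tested on simulated data. A check for a library deposited under 2 names found none (chi-square over its degrees of freedom at least 21.43 within groups), which does not show that libraries are biological replicates.

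The members and lists were chosen with earlier results of these data known. Values were given for each chain called and for the highest chain of each subgroup, and the others by mean or range. Of 142 listed genes in 12 lists 121 were in the table (Crtap as Crtapl1) and 105 were tested. Each pathway list was to give up to 3 called members per comparison or its highest member, and each cell type list up to 2 called members. A called member of 1 cell type list is not reported here. A few genes outside that rule (Serpinh1, Lair1, Adgrg1, Pdgfrb, Fbln1, Aqp3, Acan, Comp, Sp7, Sox9, Cidec) were named after their values were seen.

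All groups use the same replicate numbers. After subtracting group means, same-numbered libraries correlated at 0.131 to 0.325 between disease and healthy control (6 of 6 above 0.1), at -0.557 to 0.309 between RYGB and disease (1 of 6) and at -0.31 to 0.0141 between RYGB and healthy control (0 of 6). In disease against healthy control 3 of 6 libraries correlated best with the library of their own number, and 0 did in either other comparison. A possible link between same-numbered libraries was thus seen in the first comparison only, and it rests on the data, not on the labels. Neither the main fit nor the permutation tests used the numbers as pairs. Replicate numbers entered only as a block in alternative fits, whose counts are in the closing section.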

Additional observations from a re-analysis of the deposited data

Results flagged for a closer look

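Each of the 31 tested chains was searched in each group of 6 libraries (93 groups) for a highest or lowest library set far from the rest. Of these 10 stood out, where chance gives about 1 in 20 groups, and 8 of the 10 were healthy control replicate 4. In that library Col1a1 was at 196.2 normalised reads (855.8 to 1143 in the other 5), Col3a1 at 880.7 (3067 to 3753), Col6a1 at 824.2 (1583 to 1889) and Col8a2 at 36.8 (85.04 to 112.6), all low. The same library was high for Col27a1 at 1109 (439.3 to 576.4), Col11a2 at 267.4 (70.11 to 115.1), Col13a1 at 171.7 (67.07 to 97.44) and Col28a1 at 41.7 (7.044 to 16.81). The other two were Col20a1 in RYGB replicate 3, at 8.743 (15.01 to 17.64), and Col4a5 in RYGB replicate 2, at 568.9 (391.6 to 456.4).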

How the results depend on the processing

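In 18 fits that each left out 1 library, chains called ranged from 0 to 3 in disease against healthy control (3 without healthy control replicate 4), from 4 to 12 in RYGB against disease (4 without disease replicate 2, 5 without disease replicate 1 and 6 without RYGB replicate 2, 3, 4 or 5, against 10 with all) and from 4 to 15 in RYGB against healthy control (15 without healthy control replicate 4, against 6). List genes called ranged from 3 to 7, 8 to 19 and 8 to 21 (6, 15 and 12 with all), and chain pairs passing from 0 to 2. Without healthy control replicate 4 the list counts were 7, 19 and 21, the last with 4 higher and 17 lower. For disease against healthy control a pseudocount of 5 gave 1 chain, edgeR 2 and DESeq2 3. For RYGB against healthy control edgeR gave 11 chains and DESeq2 12. DESeq2 called 10, 27 and 20 list genes. A replicate block gave 0, 9 and 7 chains and ended the call of Col6a2 in RYGB against disease (adjusted p = 0.0793). It ended no other call among the 10 chains, and no chain pair passed with it. The same block fitted to the healthy control and disease libraries only, chosen after seeing the data, gave 0 chains. Directions turned only in disease against healthy control among the named chains, where nothing was called: Col4a2 was -0.002 with edgeR and -0.104 to 0.092 leaving out 1 library, Col1a1 -0.003 to 0.504, Col3a1 -0.071 to 0.347 and Col5a2 -0.155 to 0.058. The cause was not tested. Depth limits Col9a1 and Col6a5, with 2 to 19 and 6 to 35 reads per RYGB library. With other scalings and with the count tests the median fold change of all genes was -0.016 to 0.021, beside -0.013 to 0.002 in the main fit.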
